A study of Homo sapiens with 16 samples.

Results

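The histone cluster genes are the genes for the linker histone H1 and the core histones H2A, H2B, H3 and H4 that lie side by side on chromosomes 6 and 1. They were taken from the count table by symbol (HIST1H to HIST4H) and then chosen by their measured counts, which had to be 10 or more in 4 or more of the 16 libraries. Of 66 such symbols, 46 reached this minimum out of 25221 genes in the table, and they comprised 4 of 6 H1, 13 of 15 H2A, 14 of 18 H2B, 5 of 13 H3 and 10 of 14 H4 genes. RNA was sequenced from MOLM13, a human acute myeloid leukemia line of the monocytic type, and K562, a human line established from a chronic myeloid leukemia that had reached blast crisis. Each line was treated for 4 h with 20 μM Ro 08-2750 (Ro), a small molecule that binds the RNA-binding protein MSI2, or with DMSO alone, and the Ro wells also held DMSO at 0.1%. Every line and treatment had 4 libraries, whose titles number them as pairs 1 to 4. Each line is an established culture, so the libraries sample 2 leukemias and no primary cells.

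Histones package DNA into nucleosomes, in which pairs of H2A, H2B, H3 and H4 form the core and H1 binds the linker DNA. Most of these genes are transcribed in S phase, when new DNA has to be packaged, and their mRNAs usually end in a short stem loop bound by SLBP in place of a poly(A) tail. Some cluster genes also give longer, polyadenylated mRNAs. The kit used here primes on poly(A), so each value is the level of the reads captured in this way and not of all mRNA of the gene.

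The stem loop that closes most histone mRNAs is shown first, because it is the end that sets them apart. It was found in the GENCODE 29 transcripts of 23 of the 46 members, in the spellings below, with the loop in capitals. HIST1H2BM, HIST1H4C and the 4 H1 members were among the other 23, whose annotated transcripts did not hold one of these spellings. Several of these transcripts are shorter than the RefSeq span, at 381 against 468 bases for HIST1H2BM and 681 against 797 for HIST1H1B. A spelling that was not found therefore does not show that the mRNA lacks a stem loop. A spelling that was found often lay inside a longer annotated transcript and did not close it. The transcript ran on for 390 bases past it in HIST3H2A and 769 in HIST1H3H, but 35 in HIST2H2AA4 and 6 in HIST1H4J.
Stem loop of 13 members, among them HIST1H3H, HIST2H2AA4 and HIST3H2A: ggctctTTTCagagcc
Stem loop of 4 H4 members, HIST1H4B, HIST1H4E, HIST1H4H and HIST1H4J: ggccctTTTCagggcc
Stem loop of 3 H2B members, HIST1H2BC, HIST1H2BD and HIST1H2BF: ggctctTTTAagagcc
Stem loop of 2 H4 members, HIST1H4I and HIST2H4B: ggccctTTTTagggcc
Stem loop of 1 member, HIST1H2AG: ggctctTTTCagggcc

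The promoters of the H1 members were printed because HIST1H1B and HIST1H1E were the members that passed the test after Ro. The sequences are the last 120 bases before the RefSeq gene start in GRCh38.p14, read towards the gene. Capitals mark AAACACA (the H1 box), CCAAT or its reverse ATTGG (the CCAAT box), and TATAAA (the TATA box).
HIST1H1B, chr6:27867589-27867708, minus strand: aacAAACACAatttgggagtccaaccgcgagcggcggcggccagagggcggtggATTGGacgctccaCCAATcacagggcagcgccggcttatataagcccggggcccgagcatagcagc
HIST1H1E, chr6:26156209-26156328, plus strand: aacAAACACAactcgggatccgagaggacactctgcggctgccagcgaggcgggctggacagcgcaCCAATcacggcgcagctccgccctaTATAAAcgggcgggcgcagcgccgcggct
HIST1H1C, chr6:26056471-26056590, minus strand: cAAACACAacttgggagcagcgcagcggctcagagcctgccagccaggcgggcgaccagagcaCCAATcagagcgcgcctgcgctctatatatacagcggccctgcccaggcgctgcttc
The H1 box began 117 bases before the start in HIST1H1B and HIST1H1E and 119 bases before it in HIST1H1C. Promoter windows from 250 bases before to 50 after the start were listed for 42 of the 46 members, and both strands were searched. AAACACA was in 4 of 4 H1 windows and in 5.76% of all 27305 windows.

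The H2A and H2B promoters were printed because these genes lie back to back, and HIST1H2AJ and HIST1H2BM face away from each other across 244 bases. HIST1H2AI lies elsewhere in the cluster, and its stretch differed from that of HIST1H2AJ at 4 of 120 positions. Capitals additionally mark ATTTGCAT (the octamer).
HIST1H2AJ, chr6:27814778-27814897, minus strand: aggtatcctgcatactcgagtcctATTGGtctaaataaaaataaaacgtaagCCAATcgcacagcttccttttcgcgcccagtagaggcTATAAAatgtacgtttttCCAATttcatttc
HIST1H2AI, chr6:27808053-27808172, plus strand: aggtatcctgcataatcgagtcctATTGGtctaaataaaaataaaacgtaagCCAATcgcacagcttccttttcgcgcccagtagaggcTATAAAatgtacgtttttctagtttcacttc
HIST1H2BM, chr6:27814902-27815021, plus strand: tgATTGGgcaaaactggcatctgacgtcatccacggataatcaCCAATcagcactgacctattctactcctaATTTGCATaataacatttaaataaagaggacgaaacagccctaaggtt
The octamer was in 10 of 14 H2B and 9 of 12 H2A windows, in 1 of 4 H3 windows and in 0 of 4 H1 and 0 of 8 H4 windows, against 1.80% of all windows. CCAAT was in 36 of 42 windows against 35.7% of all, but in only 2 of 8 H4 windows, and TATAAA was in 28 of 42 against 12.0%. These are letter matches and not measured binding.

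Library totals ranged from 3143129 counts (K562 DMSO 2) to 43571060 (K562 DMSO 1), and K562 DMSO 4 had 4383241. Levels are given as CPM, a gene's counts scaled to a fixed library total with TMM factors, and 3 counts correspond to 0.954 unscaled CPM in the smallest library. Erythroid markers summed to 1524 to 2918 CPM in K562 and 3.24 to 8.38 in MOLM13, where GATA1, KLF1, HBG1 and HBZ had at most 3 counts in every library. Myelomonocytic markers summed to 881 to 1353 CPM in MOLM13 and 147 to 297 in K562, although HOXA9 had at most 3 counts in every library of either line. MOLM13 DMSO 4 and K562 DMSO 4 stood apart from the other libraries of their groups in the members themselves, in opposite directions. Several results that rest on them, though not all, are given with and without them.

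The members just inside the minimum were HIST1H2AA, whose 4 highest counts went down to 12, and HIST1H2AL, for which they went down to 11. Just outside were HIST1H3B, down to 9, and HIST1H2BA and HIST1H4D, down to 7 each. HIST1H1A, HIST1H2AD, HIST1H2AK, HIST1H3C, HIST1H3E, HIST1H4F and HIST1H4G had 0 counts in all 16 libraries. H3F3A and ASF1A, which lie outside the clusters, had 0 in all of them too. How reads were assigned to genes is not given in the sources used here, so a 0 is not shown to mean absent expression. The H3 family, with 5 of 13 genes kept, was the one most reduced by the minimum. The tests used the same minimum over the 8 libraries compared, and with it 36 members were tested in both lines, 6 in MOLM13 alone, 3 in K562 alone, and HIST1H2AL in neither.

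A single H4 gene carried most of the histone cluster reads in both lines. HIST1H4C (chr6:26103933-26104337, plus strand) had 3259, 3148, 3188 and 5879 CPM in the MOLM13 DMSO libraries of pairs 1 to 4. In the K562 DMSO libraries it had 3825, 3376, 2561 and 1384 CPM. The groups overlapped, with the highest and the lowest value both in the library of pair 4. HIST1H4C thus took 82.8% to 87.6% of the summed member CPM in MOLM13 DMSO and 58.1% to 72.3% in K562 DMSO. The other 9 H4 members together had 41.0 ± 3.42 CPM in MOLM13 and 56.6 ± 18.1 in K562 (SD, n = 4).

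The linker histone family came next, through HIST1H1C in K562 and through 3 genes in MOLM13. H1 members summed to 352 ± 91.1 CPM in MOLM13 DMSO and 921 ± 576 in K562 DMSO (SD, n = 4). H2A members summed to 217 ± 39.2 and 245 ± 85.7 CPM, H2B members to 45.1 ± 6.17 and 134 ± 37.3 CPM, and H3 members to 16.0 ± 1.72 and 92.3 ± 22.0 CPM. These sums add up captured reads, so they do not measure how much of each histone the cells made. All 46 members made up 0.317% to 0.586% of the counts in MOLM13 DMSO and 0.268% to 0.636% in K562 DMSO. Most members were expressed at a low level, with 12 of 46 under 1 CPM in MOLM13 DMSO and 11 in K562 DMSO, and 2 and 3 members above 100 CPM.

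**Figure D1:**
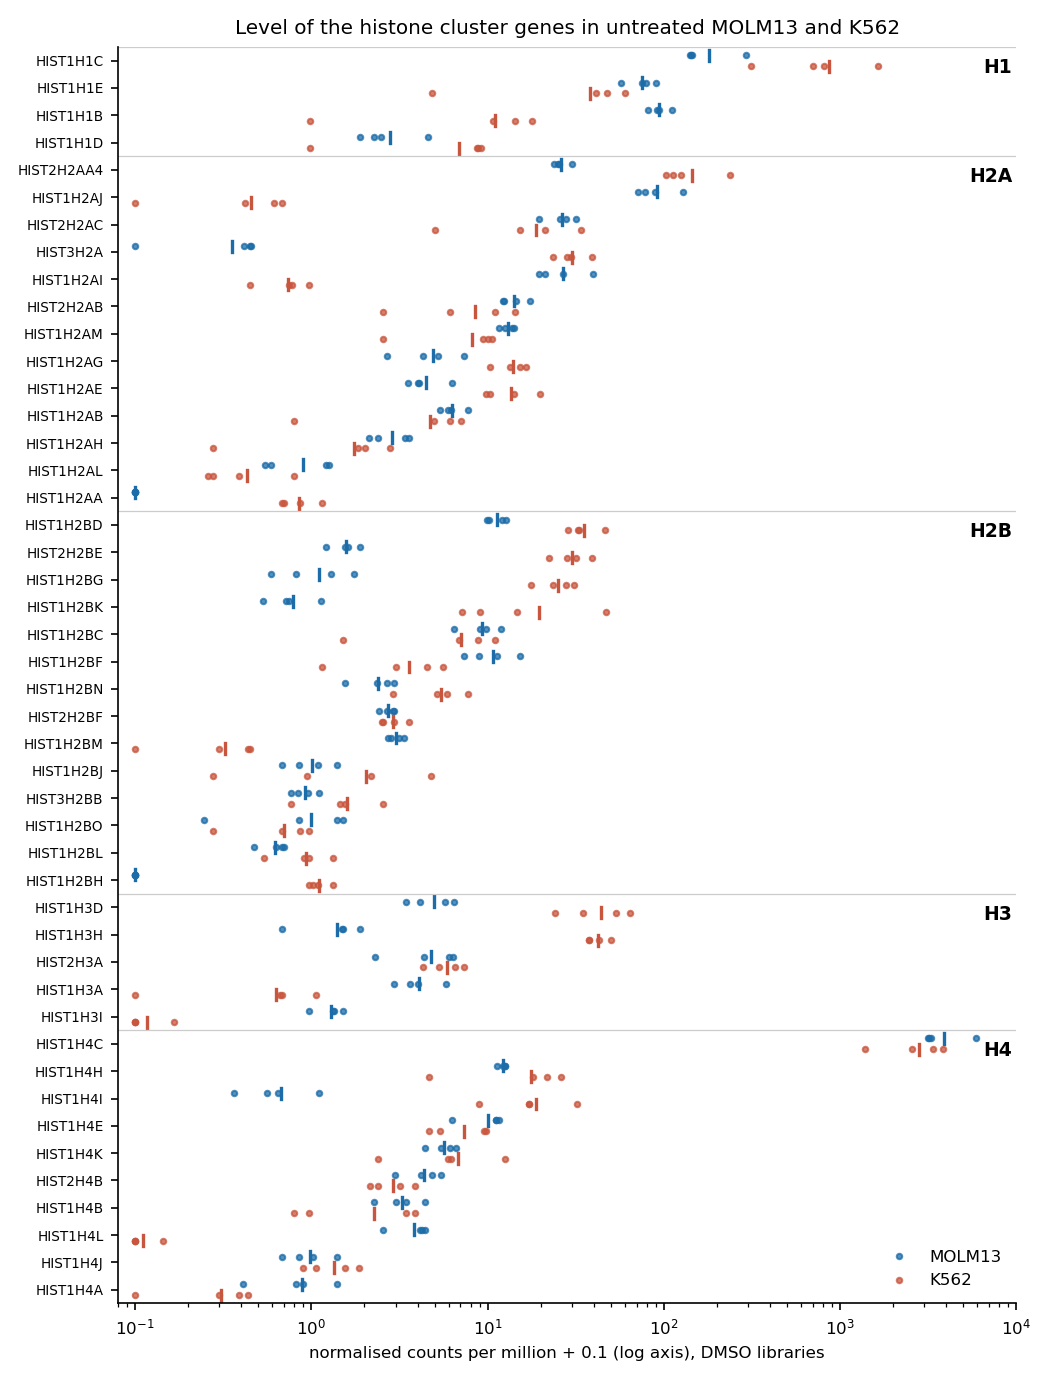
Level of each of the 46 members in the DMSO libraries of MOLM13 and K562, as CPM + 0.1 on a log axis, grouped by family, with a point for each library and a tick at the mean of 4. HIST1H4C has the highest mean in both lines (3869 CPM in MOLM13 and 2787 in K562), and HIST1H2AJ and HIST3H2A separate the lines widely in opposite directions.

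Untreated MOLM13 and K562 shared their most abundant member in 4 of the families (HIST1H1C, HIST1H2BD, HIST1H3D and HIST1H4C), while HIST1H2AJ led the H2A family in MOLM13 and HIST2H2AA4 in K562. The comparison of the 8 DMSO libraries asked which members differed between the lines before any drug. Of 41 members tested, 7 were higher in MOLM13 (21.1% of all 15268 genes tested were) and 14 were higher in K562 (20.3%) in edgeR (quasi-likelihood test, Benjamini-Hochberg adjustment), and DESeq2 called 7 and 14 as well. A member that reached the minimum through 1 line alone had to differ between them, so the counts describe the members and support nothing further. The DMSO ranges of the lines did not overlap for 23 members, of which 9 were higher in MOLM13 and 14 in K562. The share of all genes without overlap is not given here, so these counts also describe the members alone. Fewer expressing cells and less RNA per cell cannot be told apart in these bulk libraries.

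Among the linker histones, HIST1H1B was higher in MOLM13 and HIST1H1C in K562. HIST1H1B had 93.9, 91.3, 81.1 and 110.4 CPM in MOLM13 DMSO and 17.7, 14.2, 10.7 and 0.876 CPM in K562 DMSO, so the lines did not overlap. It was higher in MOLM13 by 3.09 ± 0.511 on the log2 scale (adjusted p = 0.00026, edgeR). HIST1H1C had 139.8, 143.2, 145.0 and 292.8 CPM in MOLM13 DMSO against 812.5, 1635, 703.0 and 310.4 CPM in K562 DMSO. The K562 values again lay beyond those of MOLM13, the nearest 2 being the libraries of pair 4, and the log2 difference was −2.25 ± 0.435 (adjusted p = 0.00091). Leaving out each DMSO library in turn gave 2.74 to 3.46 for HIST1H1B and −2.58 to −1.73 for HIST1H1C. HIST1H1E overlapped between the lines, at 56.9 to 89.8 CPM in MOLM13 and 4.73 to 59.8 CPM in K562 (log2 difference 0.96 ± 0.484, adjusted p = 0.13), and it passed the test without K562 DMSO 4 at a smaller difference of 0.61. HIST1H1D was higher in K562 by a smaller margin (−1.31 ± 0.493, adjusted p = 0.047), although the lines overlapped. It had 2.17, 2.39, 1.79 and 4.47 CPM in MOLM13 DMSO and 8.67, 9.01, 8.65 and 0.876 CPM in K562 DMSO, so K562 DMSO 4 lay below every MOLM13 DMSO library.

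H2A genes gave the widest differences in both directions. HIST1H2AJ had 127.8, 78.2, 71.3 and 89.1 CPM in MOLM13 DMSO and 0.514, 0.581, 0.320 and 0 CPM in K562 DMSO, a log2 difference of 7.85 ± 0.414 (adjusted p = 8.85e-09). HIST1H2AI, whose promoter stretch is nearly the same, had 39.6, 21.1, 19.3 and 26.7 CPM in MOLM13 DMSO and 0.350 to 0.872 CPM in K562 DMSO (5.37 ± 0.350, adjusted p = 5.36e-08). The annotated transcripts of this pair are hard to separate, since 83.7% of the 50-base windows of HIST1H2AJ also occur in HIST1H2AI, so the division of reads between them is uncertain. HIST3H2A (chr1:228457364-228457873, minus strand) went the other way, with 0, 0.354, 0.347 and 0.315 CPM in MOLM13 DMSO and 29.5, 38.9, 28.3 and 23.3 CPM in K562 DMSO (−6.61 ± 0.374, adjusted p = 1.62e-08). HIST2H2AA4 was present in both lines, at 25.4, 25.1, 23.8 and 30.0 CPM in MOLM13 and 125.3, 236.2, 113.2 and 103.0 CPM in K562 (−2.46 ± 0.279, adjusted p = 8.73e-06). HIST2H2AC overlapped, at 19.4 to 31.7 and 4.90 to 33.8 CPM. HIST2H2AA4 has a near-identical copy, HIST2H2AA3, that has no row of its own here, so its counts may hold reads of both.

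Of 13 H2B members tested, 5 were higher in K562 and 2 in MOLM13. HIST2H2BE had 1.44, 1.11, 1.79 and 1.52 CPM in MOLM13 DMSO and 28.0, 38.9, 31.6 and 22.1 CPM in K562 DMSO (−4.35 ± 0.277, adjusted p = 4.43e-08). HIST1H2BG was at 0.487 to 1.64 CPM in MOLM13 and 17.5 to 30.8 CPM in K562 (−4.58 ± 0.369, adjusted p = 3.46e-07). HIST1H2BD had the highest mean of the H2B genes in both lines, at 11.1 ± 1.36 and 34.9 ± 7.70 CPM (SD, n = 4), and differed by −1.65 ± 0.219 (adjusted p = 3.87e-05). HIST1H2BM went the other way, with 2.74, 3.06, 2.63 and 3.24 CPM in MOLM13 and 0 to 0.350 CPM in K562 (3.43 ± 0.372, adjusted p = 5.77e-06). HIST1H2BH had 0 counts in the 4 MOLM13 DMSO libraries together, which allows up to 3 of 95988890 counts or 0.0313 CPM without TMM factors. It had 77 counts in those of K562, at least 34.2-fold higher on this unscaled basis with the 77 taken as exact. HIST1H2AA likewise had 0 counts in MOLM13 DMSO and 57 in K562 DMSO, at least 25.3-fold higher in K562 on the same basis. TMM factors were 0.804 to 0.905 in MOLM13 DMSO and 1.03 to 1.30 in K562 DMSO, so scaling with them would lower both folds.

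H3 and H4 members split between the lines as well. HIST1H3H had 0.578, 1.42, 1.39 and 1.78 CPM in MOLM13 DMSO and 37.6, 50.3, 37.7 and 42.7 CPM in K562 DMSO (−4.91 ± 0.293, adjusted p = 2.56e-08). HIST1H3D was at 3.32 to 6.38 CPM in MOLM13 and 24.0 to 63.9 CPM in K562 (−3.16 ± 0.333, adjusted p = 4.34e-06), and its annotated span overlaps HIST1H2AD. HIST2H3A overlapped between the lines, at 2.21 to 6.25 and 4.20 to 7.21 CPM. Among the H4 genes, HIST1H4I had 1.01, 0.266, 0.546 and 0.458 CPM in MOLM13 DMSO against 17.1, 32.0, 8.85 and 17.0 CPM in K562 DMSO (−5.17 ± 0.464, adjusted p = 9.53e-07). HIST1H4L went the other way, with 294 counts in MOLM13 DMSO and 2 in K562 DMSO. Without TMM factors this was a ratio of 110, with an exact 95% interval of 30.3 to 916 that covers counting error only. The abundant HIST1H4C did not pass (0.48 ± 0.324, adjusted p = 0.26), and HIST1H4H did not pass either (−0.56 ± 0.373, adjusted p = 0.26). The difference of HIST1H4C was 0.21 to 0.65 when each DMSO library was left out in turn.

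Scaling bears on these counts. With library totals alone the median of all genes moved to −0.41 on the log2 scale, and all genes split 2023 higher in MOLM13 to 5008 higher in K562 where TMM gave 3215 to 3098. The members then split 7 to 15, with HIST1H4H added as higher in K562.

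Back-to-back H2A and H2B genes often had unequal levels, and the ratio of their means was wider in MOLM13 for 5 of 7 neighbours. These 7 are the neighbours with both genes among the members, separated by 229 to 247 bases between their starts. In MOLM13, HIST1H2AJ averaged 91.6 CPM beside 2.92 for HIST1H2BM, a ratio of 31.4, and HIST1H2AI averaged 26.7 CPM beside 0.519 for HIST1H2BL, a ratio of 51.4. In K562 the widest ratio was 20.2, between HIST3H2A at 30.0 CPM and HIST3H2BB at 1.48. HIST1H2AJ and HIST1H2BM were close there, at 0.354 and 0.221 CPM, as were HIST1H2AI and HIST1H2BL, at 0.638 and 0.836 CPM. In K562 DMSO these genes had 33, 22, 51 and 57 counts in that order, so their ratios there rest on few counts. The means of HIST2H2BE and HIST2H2AC exchanged their order, with 1.46 and 26.1 CPM in MOLM13 and 30.1 and 18.7 CPM in K562, a ratio of 1.61. In the K562 libraries HIST2H2BE had 28.0, 38.9, 31.6 and 22.1 CPM and HIST2H2AC had 33.8, 20.9, 15.2 and 4.90 CPM. Their ranges overlapped, K562 DMSO 1 kept the order of MOLM13, and DMSO 4 held the lowest value of both. The means of HIST1H2BG and HIST1H2AE also changed order, with 1.01 and 4.37 CPM in MOLM13 and 24.9 and 13.4 CPM in K562, a ratio of 1.86. HIST1H2AM and HIST1H2BO kept theirs, at 12.9 and 0.898 CPM in MOLM13 and 8.05 and 0.597 CPM in K562, with ratios of 14.4 and 13.5. Of the 50-base windows of HIST1H2AM, 86.3% also occur in HIST1H3J. Capture on poly(A) can differ between genes, so these are ratios of captured reads.

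**Figure D2:**
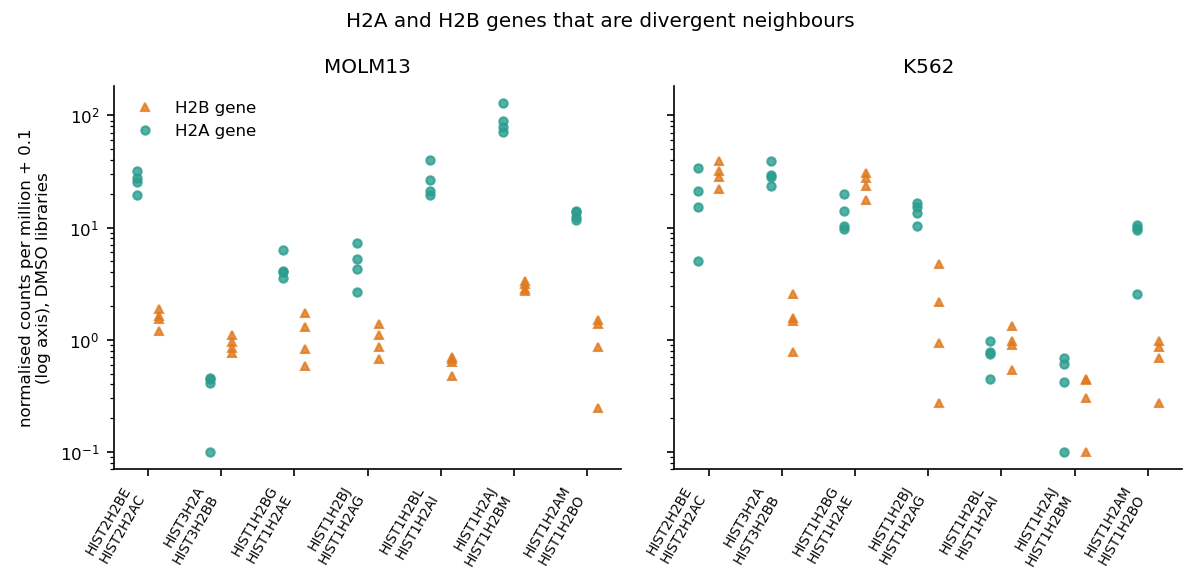
CPM + 0.1 on a log axis of the H2A gene (circles) and the H2B gene (triangles) of each of the 7 divergent neighbours, with a point for each DMSO library of MOLM13 and K562. HIST1H2AJ and HIST1H2BM lie far apart in MOLM13 (means of 91.6 and 2.92 CPM), and the means of HIST2H2BE and HIST2H2AC exchange their order between the lines.

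Among the members tested, those with a longer annotated gene were more often called higher in K562 than those with a shorter one. Members were divided after their values were seen into 20 whose span in RefSeq or GENCODE 29 exceeded 800 bases and 26 of at most that span (the longest of these was 797 bases and the shortest of the others 895). Of 19 longer members tested, 10 were called higher in K562 and 1 in MOLM13, with a median log2 difference of −1.21. Of 22 shorter members tested, 4 were called higher in K562 and 6 in MOLM13, with a median of 0.50. Of all genes tested, 20.3% were called higher in K562 and 21.1% in MOLM13. Members that reached the minimum through 1 line alone are counted here as well. HIST3H2A, HIST1H3H, HIST2H2BE and HIST1H4I were among the longer ones, and HIST1H2AJ, HIST1H2AI, HIST1H1B and HIST1H2BM among the shorter. The limit was drawn with the values known, so no test is given.

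In MOLM13, most histone cluster genes had slightly lower levels with Ro, and 2 linker histone genes passed the test once the pairs were kept together. HIST1H1E had 89.8, 74.6, 56.9 and 78.6 CPM in DMSO and 80.9, 55.3, 45.1 and 46.3 CPM in Ro, in the order of pairs 1 to 4. The groups overlapped, but every pair was lower with Ro, and HIST1H1E fell by 0.41 ± 0.0854 on the log2 scale with the pair as a replicate block (adjusted p = 0.013, edgeR). HIST1H1B had 93.9, 91.3, 81.1 and 110.4 CPM in DMSO and 86.8, 79.1, 62.9 and 77.3 CPM in Ro, was again lower in every pair, and fell by 0.29 ± 0.0762 with the block (adjusted p = 0.049).

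These calls depended on the pairing. The fit without the block called 0 of 42 members tested (2 at an unadjusted p under 0.05), as did DESeq2. That edgeR fit called 0 of all 15031 genes as well (175 at an unadjusted p under 0.05), and DESeq2 called 1. There the changes of HIST1H1E and HIST1H1B were −0.38 ± 0.228 and −0.28 ± 0.152, with an adjusted p of 0.9999 for both in edgeR. The blocked fit called 2 of 42 members lower, against 1.17% of all 15031 genes, and DESeq2 with the block called the same genes (adjusted p = 0.0041 and 0.033). Leaving out pair 2, 3 or 4 ended both calls, and leaving out pair 1 ended that of HIST1H1B. The estimates stayed negative, from −0.50 to −0.29 for HIST1H1E and from −0.35 to −0.22 for HIST1H1B.

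The other abundant members were not called in either fit. HIST1H1C had 139.8, 143.2, 145.0 and 292.8 CPM in DMSO and 168.3, 126.0, 121.5 and 181.9 CPM in Ro, so DMSO 4 stood above all others. Its change was −0.21 ± 0.0993 with the block (adjusted p = 0.28, edgeR) and, without DMSO 4 and without the block, 0.08. The latter fit kept Ro 4, and the blocked change of HIST1H1C was −0.36 to −0.049 when each pair was left out in turn. HIST1H4C had 3332, 2909, 2900 and 3918 CPM in Ro beside the DMSO values above, a change of −0.19 ± 0.0802 with the block (adjusted p = 0.23) and 0.04 without DMSO 4 and without the block. Its blocked change was −0.26 to −0.057 when each pair was left out in turn. HIST1H2BM did not overlap between the groups, at 2.63 to 3.24 CPM in DMSO and 1.05, 1.82 and 2.20 CPM in Ro 1 to 3, with Ro 4 between them. Its change was −0.77 ± 0.213 with the block, and the adjusted p of 0.061 did not pass (edgeR). HIST2H2AA4 did not overlap either, with 20.8, 23.0, 22.6 and 20.0 CPM in Ro beside 23.8 to 30.0 CPM in DMSO, and its pair changes of −0.29, −0.13, −0.073 and −0.58 were not called together.

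**Figure D3:**
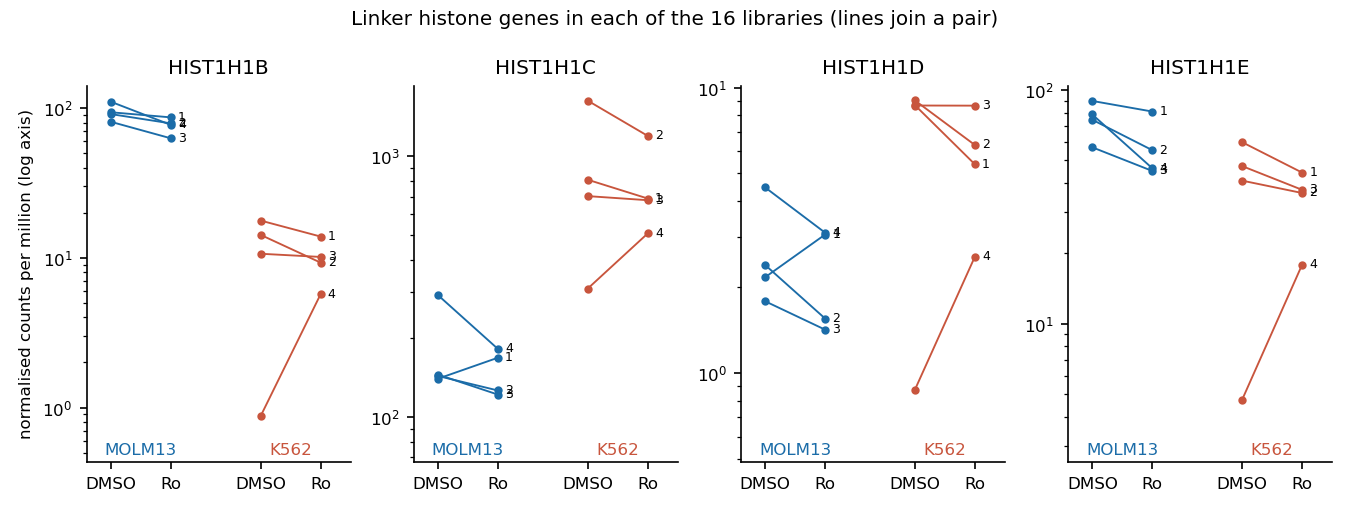
CPM on a log axis of the H1 genes HIST1H1B, HIST1H1C, HIST1H1D and HIST1H1E in DMSO and Ro, with a panel for each gene. A line joins the libraries of each pair, and each panel has MOLM13 at the left and K562 at the right. In MOLM13 all 4 lines run down for HIST1H1B and HIST1H1E, while in K562 the line of pair 4 runs up from a DMSO library at 0.876 and 4.73 CPM.

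Lower estimates outnumbered higher ones in each family with the block, and the families were not tested against each other. With the block, 4 of 4 H1, 9 of 10 H2A, 11 of 13 H2B, 4 of 5 H3 and 6 of 10 H4 members tested had a lower estimate, and 3, 7, 3, 0 and 1 of them reached an unadjusted p under 0.05. Of all 15031 genes 49.6% had a lower blocked estimate, and 2585 reached that p, 1450 of them lower. Without the block and without DMSO 4, the lower estimates were 2 of 4 in H1, 9 of 10 in H2A, 8 of 11 in H2B, 4 of 5 in H3 and 3 of 8 in H4. That fit kept Ro 4. With the block and without both libraries of pair 4, they were 4 of 4, 9 of 10, 6 of 9, 3 of 5 and 5 of 8 in that order. Without the block, 34 of 42 members had a lower estimate, against 49.9% of all genes. In 10 of 42 members all 4 pairs were lower (14.9% of all genes were), and in 0 of 42 all 4 pairs were higher (10.2%). HIST1H1B, HIST1H1E, HIST2H2AA4, HIST2H2AC, HIST1H2BD, HIST1H2BM and HIST1H4L were among the 10. The median change of the members was −0.24, beside 0.00043 for all genes.

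The MOLM13 pairs were unequal, with pair 4 the lowest. The members' median change was 0.035 in pair 1, −0.28 in pair 2, −0.23 in pair 3 and −0.51 in pair 4. Without DMSO 4 and without the block it was −0.14, and 26 of 38 members tested had a lower estimate. With the block and without both libraries of pair 4 it was −0.13, and 27 of 36 members tested had a lower estimate (48.7% of all genes did). MOLM13 DMSO 4 was also the DMSO library with the highest level of the S-phase list, a set of 21 DNA replication genes, at 3766 CPM in sum against 2073 to 2332 in the other 3. Ro 4 had 3273 CPM of that list against 1958 to 2010 in the other Ro libraries, and the part of these levels in the members' change was not tested.

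**Figure D4:**
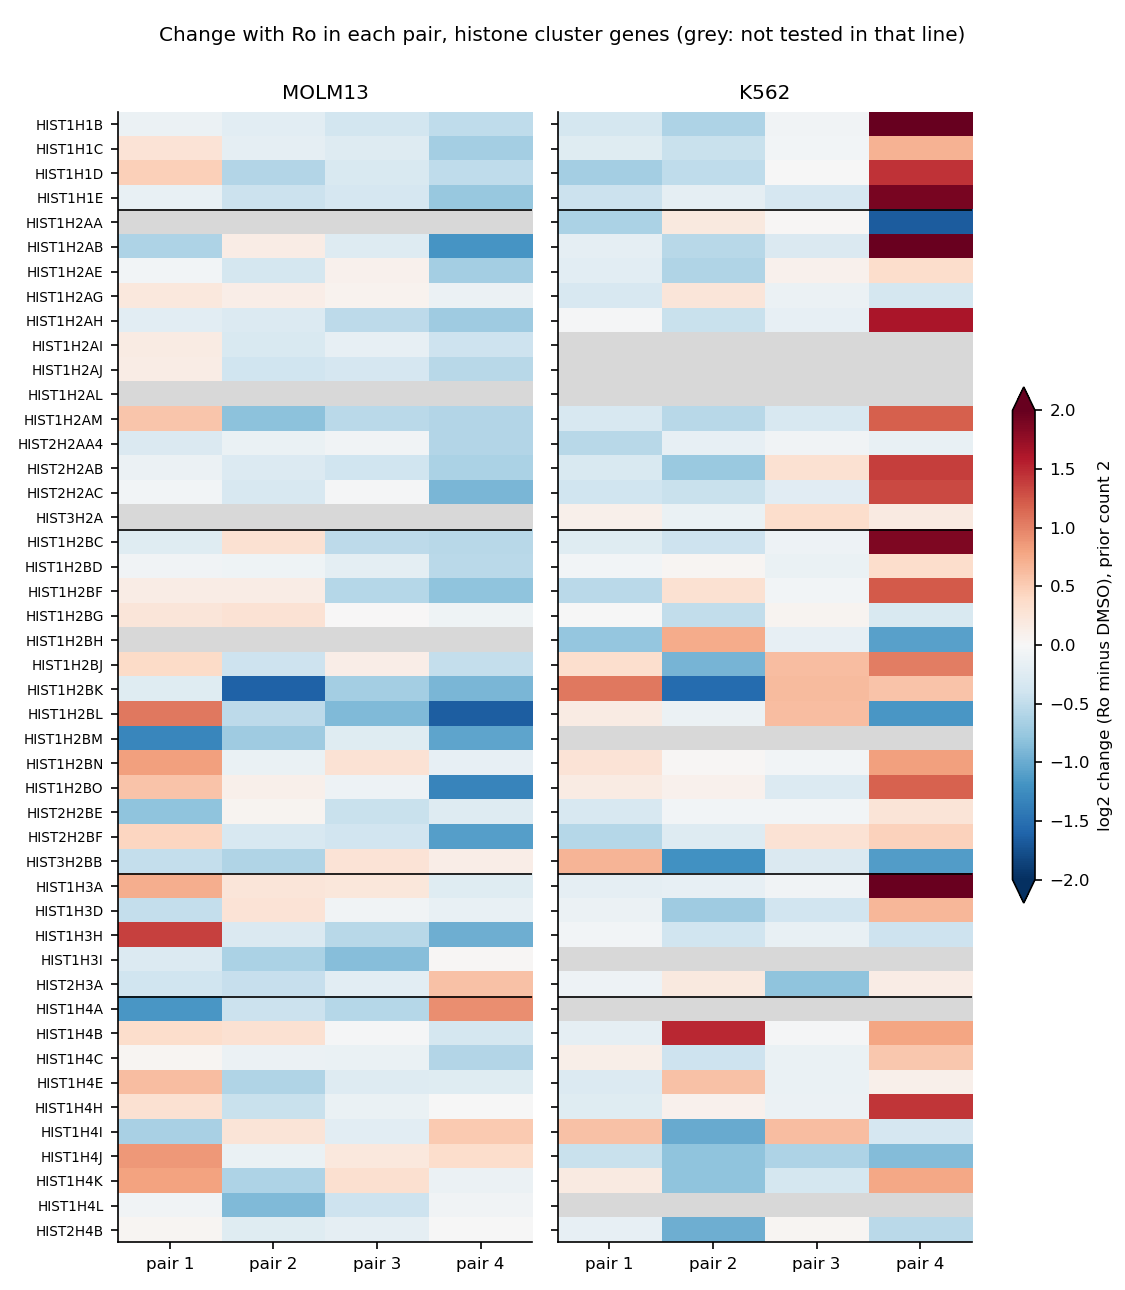
Change with Ro in each pair (log2 of Ro over DMSO CPM, prior count of 2) for every member, ordered by family, as color from blue (lower with Ro) to red (higher), which saturates at 2 in either direction, with members not tested in a line in grey. MOLM13 pairs 2 to 4 are mostly blue, while K562 pair 4 is mostly red (median 0.57) and K562 pairs 1 to 3 mostly blue.

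In K562 no member passed the test with Ro when all 4 pairs were used, and pair 4 ran against the other 3. HIST1H1E had 59.8, 41.0, 47.3 and 4.73 CPM in DMSO and 44.4, 36.3, 37.4 and 17.9 CPM in Ro, so it was lower with Ro in pairs 1 to 3 and higher by 1.89 on the log2 scale in pair 4. HIST1H1B had 17.7, 14.2, 10.7 and 0.876 CPM in DMSO and 13.9, 9.30, 10.1 and 5.70 CPM in Ro, again lower in 3 pairs and higher by 2.57 in pair 4. HIST1H1C followed with 688.2, 1198, 678.0 and 505.2 CPM in Ro beside the DMSO values above, and was higher by 0.70 in pair 4. Groups overlapped for all 3 genes. Their changes without the block were −0.18 ± 0.510, −0.19 ± 0.521 and −0.16 ± 0.418 in that order, with an adjusted p of 0.9998 for each (edgeR).

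The fit called 0 of 39 members tested in edgeR without the block (0 at an unadjusted p under 0.05), 0 with the block (1 at an unadjusted p under 0.05) and 0 in DESeq2 with or without it. Of all 15227 genes, edgeR called 0 with or without the block (322 and 187 at an unadjusted p under 0.05), and DESeq2 called 0 without the block and 2 with it. Without the block, 33 of 39 members had a lower estimate (45.8% of all 15227 genes did) and the median was −0.15. With the block, 21 of 39 were lower and the median was −0.0020, so the lean depended on the pairing. The members' median by pair was −0.18, −0.41, −0.075 and 0.57. Lower in all 4 pairs were 3 of 39 members (4.64% of all genes), and 0 of 39 were higher in all 4 (6.84%).

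Those 3 were HIST1H3H, HIST2H2AA4 and HIST1H4J. HIST1H3H had 36.3, 38.2, 33.9 and 32.1 CPM in Ro beside 37.6 to 50.3 CPM in DMSO, so Ro 2 alone lay within the DMSO range, and its change was −0.24 ± 0.135 with the block (adjusted p = 0.95, edgeR). HIST2H2AA4 had 85.7, 211.8, 108.0 and 93.1 CPM in Ro beside 125.3, 236.2, 113.2 and 103.0 in DMSO (−0.22 ± 0.142 with the block, adjusted p = 0.95). The libraries of pair 2 were high in both treatments. HIST1H4J had 0.961, 1.45, 0.801 and 1.75 CPM in DMSO and 0.683, 0.794, 0.487 and 0.918 CPM in Ro (−0.73 ± 0.305 with the block, unadjusted p = 0.042 in edgeR's quasi-likelihood test, adjusted p = 0.95). It rests on 78 and 63 counts, and 81.2% of its 50-base windows also occur in HIST1H4K, which was lower in only pairs 2 and 3. HIST1H4C had 4141, 2524, 2339 and 2014 CPM in Ro and a change of −0.0084 ± 0.330 without the block.

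K562 DMSO 4 held less of most histone cluster transcripts than the other 3 K562 DMSO libraries. HIST1H1B had 5 counts there (0.876 CPM against 10.7 to 17.7), HIST1H1E had 27 (4.73 CPM against 41.0 to 59.8) and HIST1H1D had 5 (0.876 CPM against 8.65 to 9.01). Their log2 differences from the mean of the other 3 libraries were −3.84, −3.34 and −3.18. In all, 27 of 39 members lay below every other K562 DMSO library, against 37.4% of all genes. By annotated length, 15 of 19 shorter and 12 of 20 longer members lay below, with median differences of −1.70 and −0.50, while all genes had a median of 0.0011. HIST1H3H (42.7 CPM against 37.6 to 50.3), HIST1H4I (17.0 against 8.85 to 32.0) and HIST1H2AG (13.3 against 10.2 to 16.3) stayed within the range of the others. The S-phase list summed to 2242 CPM in this library against 2822 to 3513 in the other 3, and the part of that level, or of the low depth, in the members' values was not tested.

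**Figure D5:**
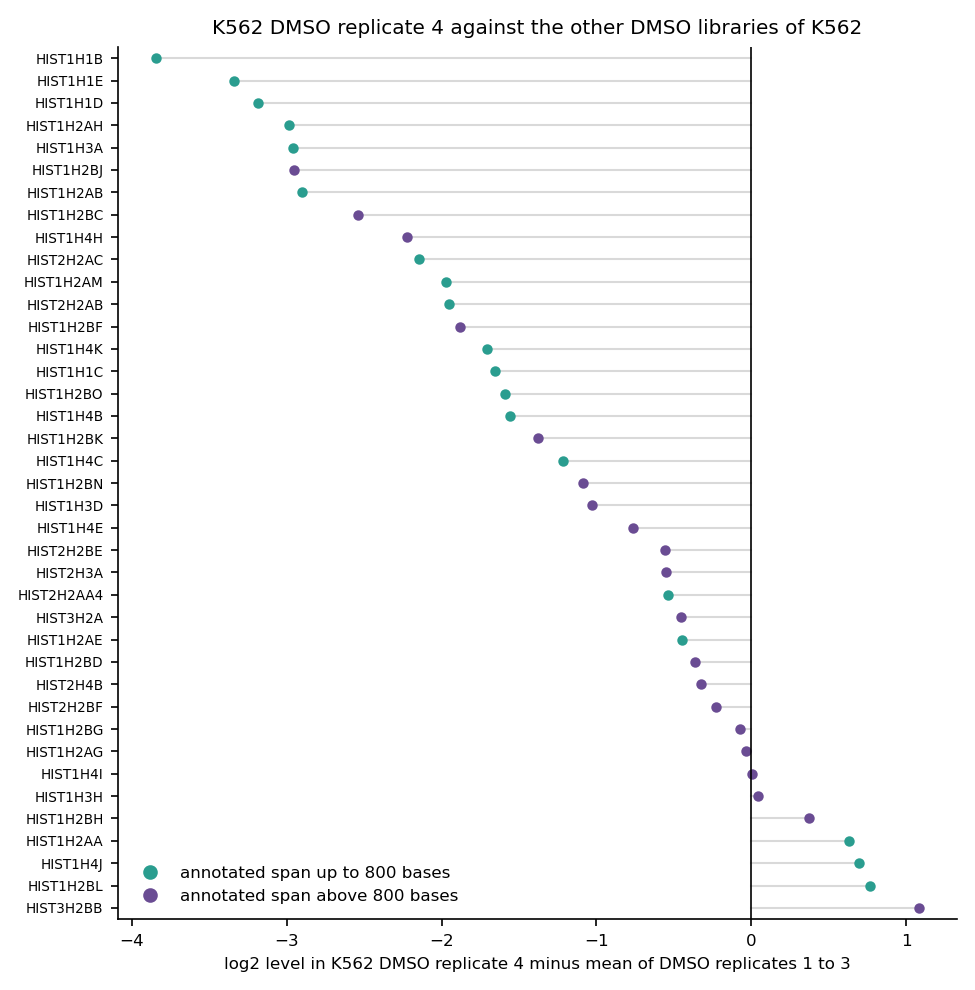
Log2 difference of K562 DMSO 4 from the mean of the other 3 K562 DMSO libraries for the 39 members tested in K562, colored by whether the annotated span exceeds 800 bases. Shorter members reach −3.84 (HIST1H1B), and several longer ones such as HIST1H3H and HIST1H4I lie near 0.

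K562 Ro 4 was also low beside the other 3 K562 Ro libraries, with a median difference of −0.47 for the members and 33 of 39 of them lower. Without DMSO 4 and without the block, the median change with Ro was −0.27 and 36 of 39 members had a lower estimate (47.4% of all genes did). In that fit edgeR called 0 of the members and 0 of all 15210 genes (108 at an unadjusted p under 0.05). It kept the low Ro 4, so pair 4 was then in the Ro group alone. With the block, leaving out each pair in turn gave a median of −0.19 to 0.046 for the members. Pairs 1 and 3 alone, which leave out the 2 shallow DMSO libraries and were chosen after the values had been seen, called 4 of 36 members with the block, against 3.06% of 13667 genes. HIST1H1E (−0.40 ± 0.0994, adjusted p = 0.0057) and HIST2H2AA4 (−0.32 ± 0.0952, adjusted p = 0.033) fell, while HIST1H2BK (0.86 ± 0.134, adjusted p = 1.81e-07) and HIST1H4I (0.59 ± 0.135, adjusted p = 0.0018) rose in that edgeR fit. HIST1H2BK had 14.6, 47.1, 8.93 and 7.01 CPM in DMSO and 30.5, 16.2, 13.9 and 10.5 in Ro, so pair 2 went against the other 3. HIST1H4I had 25.7, 15.9, 13.7 and 13.5 CPM in Ro beside 17.1, 32.0, 8.85 and 17.0 in DMSO, and pairs 2 and 4 went against pairs 1 and 3. The RefSeq span of HIST1H2BK (chr6:27138293-27146858, minus strand) contains HIST1H4I (chr6:27139282-27139678, plus strand), and whether the counting used strand is not given in the sources used here, so reads of these genes may not be told apart.

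The difference between the lines in the Ro change was tested in 1 fit of all 16 libraries. Of 46 members tested there, 0 were called in edgeR (0 at an unadjusted p under 0.05), 0 with the block (1 at an unadjusted p under 0.05) and 0 in DESeq2 with or without the block. Of all 16224 genes, edgeR called 0 with or without the block (975 and 218 at an unadjusted p under 0.05), and DESeq2 called 0 without the block and 3 with it. For HIST1H1E the change in MOLM13 minus that in K562 was −0.48 with the block (adjusted p = 0.77, edgeR) and for HIST1H1B it was −0.31 (adjusted p = 0.82). The calls of these genes in MOLM13 and their absence in K562 are thus not shown to differ.

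Genes that make, carry or replace cluster histones are the setting of these values. Of 15 genes for histone mRNA transcription and 3′ end formation, 0 were called with Ro in either line with or without the block in edgeR. SLBP, which binds the stem loop, averaged 67.8 CPM in MOLM13 DMSO and 61.3 in Ro, and 99.7 and 117.8 in K562. NPAT, the activator of cluster histone genes in S phase, averaged 12.4 and 12.0 CPM in MOLM13 and 9.03 and 10.8 in K562. Of 16 histone chaperone genes 15 were tested in each line and 0 were called, with or without the block. Of 12 replacement and variant histone genes outside the clusters, 11 were tested in MOLM13 and 9 in K562, and 0 were called in either fit. The S-phase list had 17 of 21 genes with a lower estimate in MOLM13 with the block, and 3 of them fell, all components of DNA replication or its nucleotide supply. MCM2 fell by 0.33 (adjusted p = 0.018), MCM7 fell by 0.33 (adjusted p = 0.026) and RRM2 fell by 0.31 (adjusted p = 0.042) in edgeR with the block, each lower in 4 of 4 pairs, and without the block 0 of the 21 were called. In K562, 0 of the 21 S-phase genes were called, and the median change was 0.093.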

How the data were processed

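Per the labels, MOLM13 and K562 RNA was read with a 3′ mRNA kit that primes on poly(A), with spike-in RNAs added. The deposited values are whole-number counts of reads per gene that the authors made with an in-house pipeline, without normalization. The submitters' processing notes name Trim Galore, STAR 2.5.3a, SAMtools 1.5 and hg38, and the counting program, the annotation and the use of strand are not given in the sources used here. The table holds 0 spike-in rows, and 0 columns lack a sample. Samples were grouped by line, treatment and pair from their titles. Nothing says that the libraries of a group came from separate cultures, so p-values measure the spread between these libraries, which may be technical.

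The quasi-likelihood F test of edgeR 4.0.16 (R 4.3.3, TMM scaling) was run on genes that had 10 or more counts in 4 or more of the 8 libraries compared, or of the 16 in the fit of both lines, and p-values were adjusted by Benjamini-Hochberg, with a threshold of 0.05. All p-values are adjusted over all genes and never over the members alone. Standard errors follow ± beside log2 values, and pair changes add a prior count of 2. Pairing was checked by correlating, across genes, how the 2 libraries of a number departed from the means of their groups. This gave 0.38 to 0.83 in MOLM13 and 0.11 to 0.42 in K562, with means of 0.57 and 0.28. Other numbers gave means of −0.16 and −0.093. Departures from a group mean cancel out within the group, so positive values for shared numbers make the others negative, and these add no support. From the positive values alone the numbers were taken to pair the libraries, and the blocked fit is given beside the fit without it. The smallest library had 3143129 counts and the largest 43571060, and limits from 3 counts cover counting error only.

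Alternatives were DESeq2 1.42.0, the replicate block, other scalings and minimum counts, a single fit of both lines, and leaving out each library or pair. A fit of K562 pairs 1 and 3 alone was an addition made after seeing the data. The scripts that made the fits were tested on simulated counts with known changes. In that simulation, edgeR without the block did not recover the known changes in K562. A lack of calls in that fit therefore does not show that genes were unchanged. The members, the gene lists and the division by length were chosen with earlier results of these data known. Genes were named by level (the 3 highest per family), by a call in either line, by the smallest p in each Ro comparison among members with 1 sign in 4 pairs, by the widest difference between lines, and by nearness to the minimum, and others named were chosen after their values were seen. All 46 members were matched by Entrez identifier to RefSeq (GRCh38.p14), from which positions and promoters come, and transcripts for stem loops and 50-base windows come from GENCODE 29.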

Additional observations from a re-analysis of the deposited data

Results flagged for a closer look

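In 7 of 88 groups of 4 libraries examined, 1 library lay far from the other 3, and chance alone flags about 1 in 20 groups. Of these, 4 were in MOLM13 DMSO 4. The summed CPM of all members was 6709 there against 3755 to 3938 in the other DMSO libraries, HIST1H4C had 5879 CPM against 3148 to 3259, and HIST1H1C had 293 CPM against 140 to 145. HIST1H4L was low in the same library, at 2.44 CPM against 4.04 to 4.30.

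In MOLM13 Ro 1, HIST1H2AJ had 142 CPM against 56.2 to 60.7 in the other Ro libraries and HIST1H2AI had 44.4 CPM against 17.0 to 20.0, and these genes share most of their 50-base windows. HIST2H2AA4 had 236 CPM in K562 DMSO 2, the shallowest library, against 103 to 125 in the other DMSO libraries.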

How the results depend on the processing

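The calls after Ro turned on the pairing and on few libraries. In MOLM13, where the fit without the replicate block called 0 members, edgeR with the block called 2, DESeq2 with the block called 2, and leaving out each pair in the blocked fit gave 0 to 3, the 3 being HIST1H1E, HIST1H2AJ and HIST1H2AM without pair 1. Leaving out single libraries without the block gave 0 in every case. In K562, pairs 1 and 3 with the replicate block called 4 members, and all other settings called 0. The block turned the direction of K562 changes that were not called, to 0.094 (edgeR) and 0.19 (DESeq2) for HIST1H1B, 0.11 and 0.16 for HIST1H1E, and 0.032 and 0.023 for HIST1H4C, which was also 0.0029 with no filter. Leaving out single libraries moved the K562 changes from −0.55 to 0.16 for HIST1H1B, −0.49 to 0.34 for HIST1H1C, −0.55 to 0.090 for HIST1H1E, −0.61 to 0.13 for HIST2H2AA4 and −0.29 to 0.145 for HIST1H4C, and the MOLM13 changes from −0.35 to 0.076 for HIST1H1C and −0.32 to 0.037 for HIST1H4C. In the blocked K562 fits without pair 1, 2 or 3, HIST1H1B gave 0.31, 0.29 and 0.22, HIST1H1C 0.051, 0.13 and 0.0021, and HIST1H1E 0.33, 0.19 and 0.31, and without pair 2 or 3 HIST1H4C gave 0.17 and 0.080. The cause was not tested. The block changed no other call of a named gene. The count called between the DMSO libraries was 19 to 23 when a library was left out. The depth of K562 DMSO 2 and 4 limits members under 1 CPM to a few counts there.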
